A study of Arabidopsis thaliana with 33 samples.

Results

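The superoxide dismutase genes of Arabidopsis, together with the gene of the chaperone that hands copper to some of the enzymes, were followed through 11 genotypes. The 8 genes were chosen by identifier from the 33557 genes of the deposited mRNA table, and all 8 were found. They are the Cu/Zn enzymes CSD1 (AT1G08830), CSD2 (AT2G28190) and CSD3 (AT5G18100), the copper chaperone CCS1 (AT1G12520), the Fe enzymes FSD1 (AT4G25100), FSD2 (AT5G51100) and FSD3 (AT5G23310), and the Mn enzyme MSD1 (AT3G10920).

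Superoxide dismutases turn superoxide, which leaks from photosynthetic and respiratory electron transport, into hydrogen peroxide and oxygen. CSD1 works in the cytosol, CSD2 in the chloroplast, CSD3 in the peroxisome and MSD1 in mitochondria, while FSD2 and FSD3 sit on the chloroplast nucleoid beside the plastid-encoded RNA polymerase. When copper is scarce, the transcription factor SPL7 is known to switch on FSD1 and the microRNA miR398, which acts against CSD1, CSD2 and CCS1 mRNA, so that Fe enzyme replaces Cu/Zn enzyme.

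Poly(A) RNA came from the above-ground parts of plants aged 20 days that had spent 6 days on MS medium and then 14 in soil, and that were harvested at 15:00. The genotypes were Col-0 (the wild type), the single mutants dcl4-2, dcl2-1, ein5-1 and ski2-2, the double mutants ein5-1 dcl2-1 and ein5-1 dcl4-2, their counterparts ski2-2 dcl2-1 as well as ski2-2 dcl4-2, and the triple mutants ein5-1 dcl4-2 dcl2-1 plus ski2-2 dcl4-2 dcl2-1. Each had 3 libraries, and each mutated gene was represented by 1 allele, without an agent or transgene in the labels. EIN5 is a cytoplasmic 5' to 3' exoribonuclease, SKI2 a helicase that feeds mRNA to the exosome, and the Dicer-like proteins DCL4 and DCL2 process double-stranded RNA to small interfering RNAs of different lengths, which the series title ties to translational repression and stress adaptation.

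Levels are FPKM, in which read fragments are divided by the length of the transcript and the size of the library, and the authors pooled the libraries into 1 value per gene and genotype. No value therefore has an SD, and neighbours in an order of levels cannot be told apart except where the authors tested them. For 8 comparisons the authors' deposited table also gives a log2 ratio and a q-value, and "rose" and "fell" below mean a q of at most 0.05, at least a 2-fold ratio and 1 FPKM or more in either genotype. The authors' deposited table has as its smallest q 0.000201 for ein5-1 comparisons and 0.000211 for ski2-2 comparisons, values that 7169 to 9235 genes share and that do not rank them. Comparisons of the single mutants, the dcl2-1 doubles and the triples with Col-0 have no test and are given by size. Read depth is unknown, and in whole shoots fewer cells of a type and less RNA per cell cannot be told apart.

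The double mutants with dcl4-2 differed most from Col-0 in leaf and root markers. The summed FPKM of 4 leaf genes was 72472 in Col-0, 8620.4 in ein5-1 dcl4-2 and 16912 in ski2-2 dcl4-2. It was also lower in ein5-1 (35526), ski2-2 (36080), ski2-2 dcl4-2 dcl2-1 (36495) and dcl2-1 (29887). In dcl4-2, both dcl2-1 doubles and ein5-1 dcl4-2 dcl2-1 it was 64657 to 71632. Of these 4 genes LHCB1.3 was listed at 0 in dcl2-1 alone. The summed FPKM of 6 root genes was 0.753 to 3.46 in 9 genotypes, 10.97 in ein5-1 dcl4-2 and 89.1 in ski2-2 dcl4-2, where the iron transporter gene IRT1 alone was at 60.6 FPKM. The summed FPKM of 4 flower genes was 4.10 to 21.2. CCA1, a morning gene of the clock, lay between 3.32 and 9.34 FPKM in dcl2-1, both dcl2-1 doubles and ein5-1 dcl4-2 dcl2-1, and between 69.3 and 179.9 FPKM in the remaining 7 genotypes. Of 4 clock genes (CCA1, LHY, PRR5 and ELF4), 3 rose and 0 fell in ein5-1 dcl4-2 over Col-0 (background 36.7% of all genes). In ski2-2 dcl4-2 over Col-0, 2 rose and 0 fell (background 28.9%). Their FPKM summed to 167 in Col-0, 415 in ein5-1, 379 in ski2-2 and 354 in ski2-2 dcl4-2 dcl2-1. The sum was 311 in ein5-1 dcl4-2, 255 in ski2-2 dcl4-2 and 79.1 to 138 in the other genotypes. The part of these differences in the results below was not tested.

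In Col-0 the FPKM of the 7 enzymes summed to 2725, of which 67.4% was Cu/Zn, 23.3% Fe and 9.28% Mn enzyme mRNA. CSD2 was the highest of them at 1080.03 FPKM, followed by CSD1 at 697 FPKM, FSD1 at 551 FPKM and MSD1 at 253 FPKM. CSD3 at 59.8, FSD2 at 44.3 and FSD3 at 40.1 FPKM were the low members, and the chaperone CCS1 stood at 165 FPKM. The mixture lay furthest from Col-0 in ein5-1 dcl4-2, and the sum was lowest in ski2-2 dcl4-2. In ein5-1 dcl4-2 the sum was 2376, close to its 2274 in ein5-1, but the Fe enzymes made up only 3.20% of it and the Cu/Zn enzymes 87.0%. In ski2-2 dcl4-2 the sum was 1146, with 69.1% Cu/Zn, 14.9% Fe and 16.0% Mn, a Cu/Zn share nearer to that of Col-0 than the 83.9% of ski2-2. FPKM over all genes also summed lowest in ski2-2 dcl4-2, to 753957 against 1243560 in Col-0. The part of this in the lower enzyme sum was not tested. The triple mutant ein5-1 dcl4-2 dcl2-1 had 22.9% Fe, near the share in Col-0, whereas ski2-2 dcl4-2 dcl2-1 had 11.4%. These shares are descriptions without a test.

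**Figure D1:**
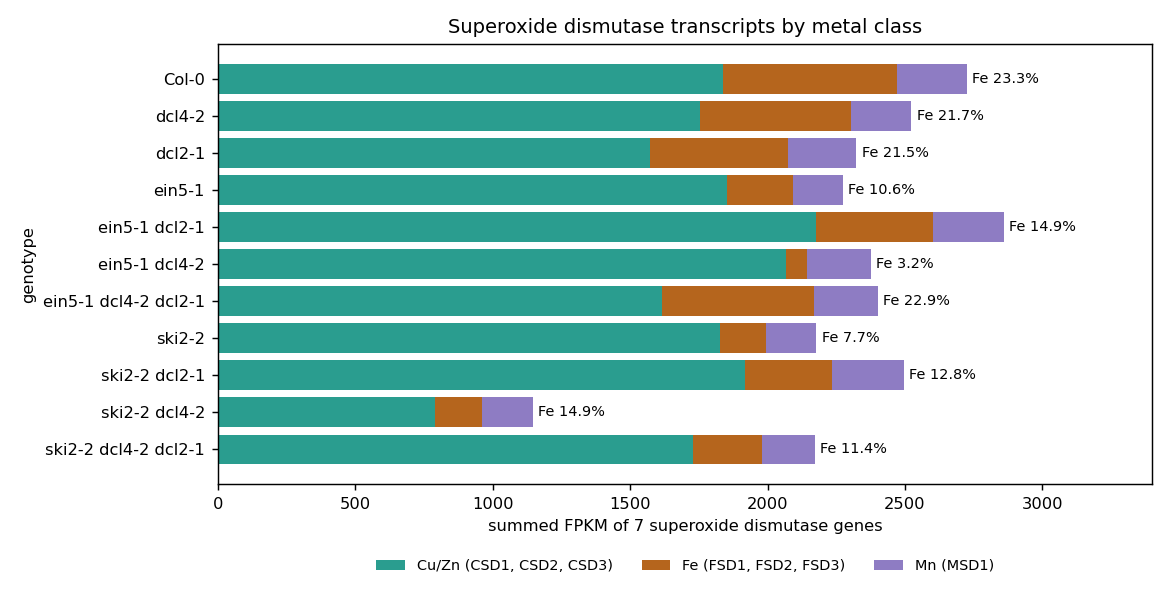
Summed FPKM of the 7 superoxide dismutase genes (x axis) in each genotype (y axis), stacked by the metal of the enzyme, with 1 pooled value per gene and genotype and the Fe share printed at each bar. The Fe share is lowest in ein5-1 dcl4-2 (3.20%) and the total is lowest in ski2-2 dcl4-2 (1146). FPKM over all genes also summed lowest in ski2-2 dcl4-2 (753957).

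In ein5-1 dcl4-2 the set split. Of the 8 genes, CSD1 rose and FSD1, FSD2 and FSD3 fell relative to Col-0, in a comparison in which 36.7% of all tested genes rose or fell. FSD1 was 12.4-fold lower, FSD3 2.78-fold and FSD2 2.60-fold lower, while CSD1 was 2.12-fold higher. The same 4 calls were made relative to dcl4-2, where the background was 35.4%. Relative to ein5-1 only FSD1 passed (1 of 8, background 30.7%). Adding dcl2-1 to the double mutant gave a rise of FSD1 and FSD3 and a fall of CSD1 (3 of 8, background 35.6%). These comparisons share the ein5-1 dcl4-2 value, so they are not independent of each other. By q alone, with no minimum ratio, 7 of 8 members differed from Col-0 (background 68.2%), 5 from ein5-1 (63.0%), 6 from dcl4-2 (67.7%) and 5 between the triple and the double mutant (67.3%).

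In ski2-2 dcl4-2 no member rose. CSD2, FSD1 and FSD2 fell relative to Col-0 (3 of 8, background 28.9%), and CSD2 and FSD1 fell relative to dcl4-2 (2 of 8, background 27.8%). Relative to ski2-2 the fall was of CSD2 alone (1 of 8, background 27.6%), and adding dcl2-1 gave a rise of CSD2 alone (1 of 8, background 28.0%). By q alone 6 members differed from Col-0 (background 60.4%), 7 from dcl4-2 (59.8%), 4 from ski2-2 (59.7%) and 5 between the triple and the double mutant (60.4%). Beside these backgrounds the counts are not read as a result about the 8 genes, and the text below describes which members changed, by how much and in which direction.

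**Figure D2:**
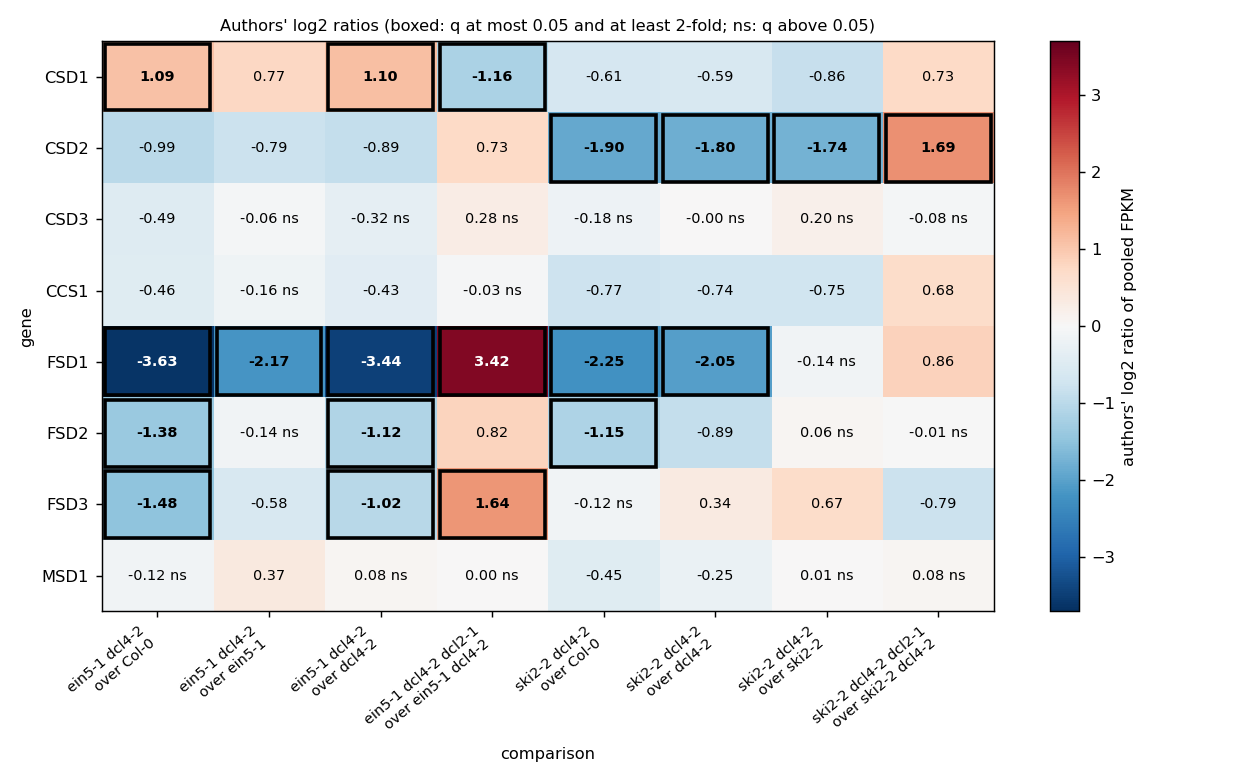
The authors' log2 ratio of pooled FPKM for the 8 genes (rows) in the 8 comparisons that carry a test (columns), coloured from blue (lower in the first genotype) to red (higher). Boxes mark a q of at most 0.05 with at least a 2-fold ratio, and ns marks a q above 0.05. CSD1 is boxed in ein5-1 comparisons alone, CSD2 in ski2-2 comparisons alone, and FSD1 in 6 of the 8 columns.

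The Cu/Zn branch is described first, with the microRNA that is known to act on it. The mature miR398 sequences are shown because pairing to them is what CSD1, CSD2 and CCS1 are known to share, with the seed (bases 2 to 8) in capitals, from RefSeq (TAIR10.1). The miR398b and miR398c forms are identical, and miR398a differs from them in its last base, so all 3 share 1 seed.
miR398a-3p: uGUGUUCUcaggucaccccuu
miR398b-3p: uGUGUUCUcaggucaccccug
miR398c-3p: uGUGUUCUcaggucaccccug

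The transcripts of 27444 genes were searched for the window that pairs best with miR398a-3p along its 21 bases, allowing 1 extra base in the transcript at a cost of 1 paired base. The best windows are shown in the sense of the mRNA with bases that form Watson-Crick pairs in capitals. They are given for the 3 members with known pairing and for AT3G15640 (COX5B-1), listed below among other copper proteins and copper microRNA targets. RefSeq calls AT3G15640 a Rubredoxin-like superfamily protein.
CSD1: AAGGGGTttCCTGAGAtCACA
CSD2: tgcGGGTGACCTGgGaAACAtA
CCS1: AttGGGaGACCTGgGAACACt
AT3G15640: AAGGtGTGACCTGAGAAtCACA

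The CSD1 window pairs at 18 bases, lies in the 5' UTR and crosses an exon junction (chr1:2827177-2827685, plus strand). Only 0.0109% of genes hold a window as good. The CSD2 window pairs at 16 bases with 1 extra base in the coding sequence (chr2:12015572-12015593, plus strand), and 2.73% of genes hold one as good. The CCS1 window pairs at 16 bases in the coding sequence (chr1:4267521-4267541, minus strand), which 0.292% of genes equal. The AT3G15640 window pairs at 20 bases with 1 extra base in the 5' UTR (chr3:5299204-5299225, plus strand), which 0.00729% equal. Among the other members the best FSD1 window for miR398a-3p scored as well as that of CSD2, while for miR398b-3p and miR398c-3p 13.8% of genes equalled FSD1 and 2.00% equalled CSD2. The miR398a-3p windows of CSD3, FSD2, FSD3 and MSD1 were equalled in 60.3% to 93.2% of genes. A window is a match of letters, and its use in these plants was not measured.

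CSD1 lies at chr1:2827060-2829315 on the plus strand. It was at 697 FPKM in Col-0, 691 in dcl4-2, 589 in dcl2-1, 870.0 in ein5-1, 859 in ein5-1 dcl2-1, 1479.6 in ein5-1 dcl4-2 and 664 in ein5-1 dcl4-2 dcl2-1. With ski2-2 it was at 819 FPKM in the single mutant, 631 in ski2-2 dcl2-1, 452 in ski2-2 dcl4-2 and 752 in ski2-2 dcl4-2 dcl2-1. The highest and the lowest values of the cytosolic enzyme thus belonged to the double mutants with dcl4-2, with the other 9 genotypes between 589 and 870.0 FPKM. In the authors' deposited table ein5-1 dcl4-2 had a log2 ratio of 1.09 over Col-0 and was 2.14-fold above dcl4-2, each with q = 0.000201, and that of the triple over the double mutant was -1.16 with q = 0.000201. Median-of-ratios scaling of the columns brought both increases to 0.99, just under 2-fold, and quantile normalization brought them to 2.30 and 2.13.

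Over ein5-1 the CSD1 ratio was 0.77 in the authors' deposited table, which passed q without reaching 2-fold. The ski2-2 dcl4-2 ratios of CSD1 in the authors' deposited table passed q below 2-fold as well, at -0.61 over Col-0, -0.59 over dcl4-2 and -0.86 over ski2-2. The first of these became 0.06 under quantile normalization, so the direction of CSD1 between ski2-2 dcl4-2 and Col-0 depended on the scaling. CSD1 overlaps AT1G08840, a gene of the minus strand annotated as a DNA replication helicase, by 211 bases, and whether reads were counted by strand is not given in the sources used here.

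CSD2 lies at chr2:12014412-12016569 on the plus strand. It was at 1080.03 FPKM in Col-0, 1011 in dcl4-2, 913 in dcl2-1, 939 in ein5-1, 1253 in ein5-1 dcl2-1, 545 in ein5-1 dcl4-2 and 902 in ein5-1 dcl4-2 dcl2-1. With ski2-2 it was at 961 FPKM in the single mutant, 1230.4 in ski2-2 dcl2-1, 287 in ski2-2 dcl4-2 and 929 in ski2-2 dcl4-2 dcl2-1. The chloroplast enzyme was lowest in the same double mutants that bounded CSD1, and its other 9 values lay between 902 and 1253 FPKM. Its log2 ratio in ski2-2 dcl4-2 was -1.90 over Col-0, -1.80 over dcl4-2 and -1.74 over ski2-2 in the authors' deposited table, and 1.69 for the triple over the double mutant, each with q = 0.000211. Quantile normalization reduced these to -1.17, -1.25, -1.25 and 1.25.

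In ein5-1 dcl4-2 the authors' deposited table gave CSD2 a log2 ratio of -0.99 over Col-0, -0.79 over ein5-1 and -0.89 over dcl4-2, each with q = 0.000201 and each below 2-fold. The first was -1.08 after median-of-ratios scaling and -0.72 after quantile normalization. CSD2 exceeded CSD1 in 9 genotypes, by 1.08-fold in ein5-1 to 1.95-fold in ski2-2 dcl2-1 and 1.55-fold in Col-0. The ratio of CSD2 to CSD1 was 0.368 in ein5-1 dcl4-2 and 0.635 in ski2-2 dcl4-2. The sum of both mRNAs was 2024 FPKM in ein5-1 dcl4-2 against 1777 in Col-0, and 739.8 FPKM in ski2-2 dcl4-2. Over the 11 genotypes the levels of CSD1 and CSD2 had a Pearson r of 0.16 on the log2(FPKM + 1) scale, a description of values that share 1 normalization.

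**Figure D3:**
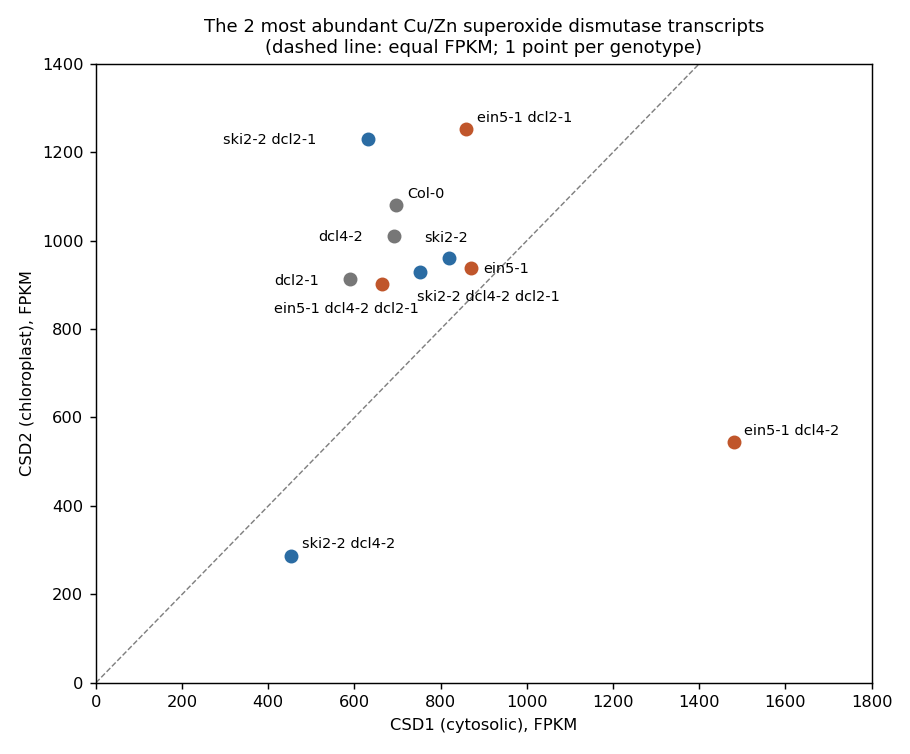
FPKM of CSD1 (x axis) and CSD2 (y axis), 1 point per genotype, grey without a decay mutation, orange with ein5-1 and blue with ski2-2, with a dashed line at equal FPKM. Points for 9 genotypes lie above the line with CSD2 at 902 to 1253 FPKM, and ein5-1 dcl4-2 and ski2-2 dcl4-2 lie below it at opposite ends of the CSD1 axis.

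CCS1 (chr1:4267074-4268982, minus strand), which inserts copper into the CSD enzymes, did not reach 2-fold in any comparison with a test or with Col-0. It was at 165 FPKM in Col-0, 161 in dcl4-2, 134 in dcl2-1, 134 in ein5-1, 149.9 in ein5-1 dcl2-1, 119.8 in ein5-1 dcl4-2 and 117 in ein5-1 dcl4-2 dcl2-1. With ski2-2 it was at 160.2 FPKM in the single mutant, 177 in ski2-2 dcl2-1, 95.6 in ski2-2 dcl4-2 and 153 in ski2-2 dcl4-2 dcl2-1. The lowest value was again that of ski2-2 dcl4-2. Its log2 ratios there in the authors' deposited table were -0.77 over Col-0, -0.74 over dcl4-2 and -0.75 over ski2-2, and 0.68 for the triple over the double mutant, all with q = 0.000211. In ein5-1 dcl4-2 it was -0.46 over Col-0 with q = 0.000201 and -0.16 over ein5-1 with q = 0.185 in the authors' deposited table. Among the 28 pairs of members CCS1 and CSD2 had the highest r over the 11 genotypes, at 0.86 (Spearman's rho 0.82).

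CSD3 (chr5:5987187-5988885, plus strand), the peroxisomal enzyme, ranged from 42.5 FPKM in ein5-1 dcl4-2 to 72.3 FPKM in dcl2-1 with a median of 52.2 over the genotypes. Its only q below 0.05 in the authors' deposited table was 0.0364, for a log2 ratio of -0.49 between ein5-1 dcl4-2 and Col-0. It overlaps 2 genes of the opposite strand, AT5G02875 and AT5G18110, by up to 405 bases.

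Of the 8 genes FSD1 varied most. FSD1 (chr4:12884300-12887011, minus strand), the SPL7-dependent member, was at 551 FPKM in Col-0, 481 in dcl4-2, 417 in dcl2-1, 200.5 in ein5-1, 355 in ein5-1 dcl2-1, 44.4 in ein5-1 dcl4-2 and 475 in ein5-1 dcl4-2 dcl2-1. With ski2-2 it was at 127 FPKM in the single mutant, 232 in ski2-2 dcl2-1, 115 in ski2-2 dcl4-2 and 208 in ski2-2 dcl4-2 dcl2-1. Col-0 was highest, ein5-1 dcl4-2 was lowest, and ein5-1 dcl4-2 dcl2-1 lay with the dcl single mutants rather than with its parent double. The highest value exceeded the lowest 12.4-fold, a range that 7.25% of the 10875 genes with a mean of at least 10 FPKM equalled or exceeded.

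The authors' deposited table gave FSD1 in ein5-1 dcl4-2 log2 ratios of -3.63 over Col-0, -3.44 over dcl4-2 and -2.17 over ein5-1, and 3.42 for the triple over the double mutant, each with q = 0.000201. In ski2-2 dcl4-2 its log2 ratio in the authors' deposited table was -2.25 over Col-0 and -2.05 over dcl4-2, each with q = 0.000211. Over ski2-2, by contrast, the ratio was -0.14 with q = 0.303, and the triple over the double mutant was at 0.86, which passed q below 2-fold. The ski2-2 single mutant was thus already near the level of the double mutant, at 127 against 115 FPKM, while the ein5-1 single mutant was at 200.5 against 44.4 FPKM. Whether the effect of dcl4-2 on FSD1 differs between ein5-1 and ski2-2 was not tested, since no library values enter. The ratio of FSD1 to CSD2 was 0.510 in Col-0, 0.0816 in ein5-1 dcl4-2 and 0.399 in ski2-2 dcl4-2, and both mRNAs were lower in these doubles than in Col-0.

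FSD2 (chr5:20773235-20775739, minus strand), a chloroplast enzyme, was highest in Col-0 at 44.3 FPKM. It was at 37.2 FPKM in dcl4-2, 32.8 in dcl2-1, 18.8 in ein5-1, 27.7 in ein5-1 dcl2-1, 17.1 in ein5-1 dcl4-2 and 30.2 in ein5-1 dcl4-2 dcl2-1. With ski2-2 it was at 19.0 FPKM in the single mutant, 34.5 in ski2-2 dcl2-1, 19.8 in ski2-2 dcl4-2 and 19.7 in ski2-2 dcl4-2 dcl2-1. Both decay single mutants, both dcl4-2 doubles and the ski2-2 triple lay between 17.1 and 19.8 FPKM, and no other genotype was below 27.7. In the authors' deposited table its log2 ratio was -1.38 for ein5-1 dcl4-2 and -1.15 for ski2-2 dcl4-2 over Col-0. Over the corresponding single mutants it was -0.14 with q = 0.434 and 0.06 with q = 0.762 in the authors' deposited table. FSD1 and FSD2 had an r of 0.84 over the 11 genotypes.

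FSD3 (chr5:7850444-7852534, plus strand), which pairs with FSD2 at the nucleoid, followed another order. It was at 40.1 FPKM in Col-0, 29.3 in dcl4-2, 50.9 in dcl2-1, 21.5 in ein5-1, 43.2 in ein5-1 dcl2-1, 14.4 in ein5-1 dcl4-2 and 44.9 in ein5-1 dcl4-2 dcl2-1. With ski2-2 it was at 23.1 FPKM in the single mutant, 51.7 in ski2-2 dcl2-1, 36.7 in ski2-2 dcl4-2 and 21.3 in ski2-2 dcl4-2 dcl2-1. The 4 genotypes above Col-0 are those in which CCA1 was at 3.32 to 9.34 FPKM, and the part of the clock difference in FSD3 was not tested.

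The log2 ratios of FSD3 in ein5-1 dcl4-2 were -1.48 over Col-0, -1.02 over dcl4-2 and -0.58 over ein5-1 in the authors' deposited table, and 1.64 for the triple over the double mutant, each with q = 0.000201. On the log2(FPKM + 1) scale the difference from dcl4-2 was -0.97, so that call rests on the scale used. In ski2-2 dcl4-2 the authors' deposited table gave -0.12 over Col-0 with q = 0.435, 0.34 over dcl4-2 with q = 0.0145 and 0.67 over ski2-2 with q = 0.000211. The ski2-2 triple over its double mutant was at -0.79 with q = 0.000211 in the authors' deposited table, opposite in sign to the ein5-1 triple.

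MSD1 (chr3:3417940-3419892, plus strand), the mitochondrial enzyme, was the steadiest member. Its lowest value was 179.9 FPKM in ein5-1, its median 233 FPKM and its highest 260.3 FPKM in ski2-2 dcl2-1, a range of 1.45-fold that 93.9% of the 10875 genes equalled or exceeded. It was at 233 FPKM in ein5-1 dcl4-2 and 183 FPKM in ski2-2 dcl4-2, against 253 FPKM in Col-0. No MSD1 ratio reached 2-fold. The largest in the authors' deposited table was -0.45 in ski2-2 dcl4-2 over Col-0 with q = 0.000211. This ratio became -0.0 under quantile normalization and -0.48 under median-of-ratios scaling.

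**Figure D4:**
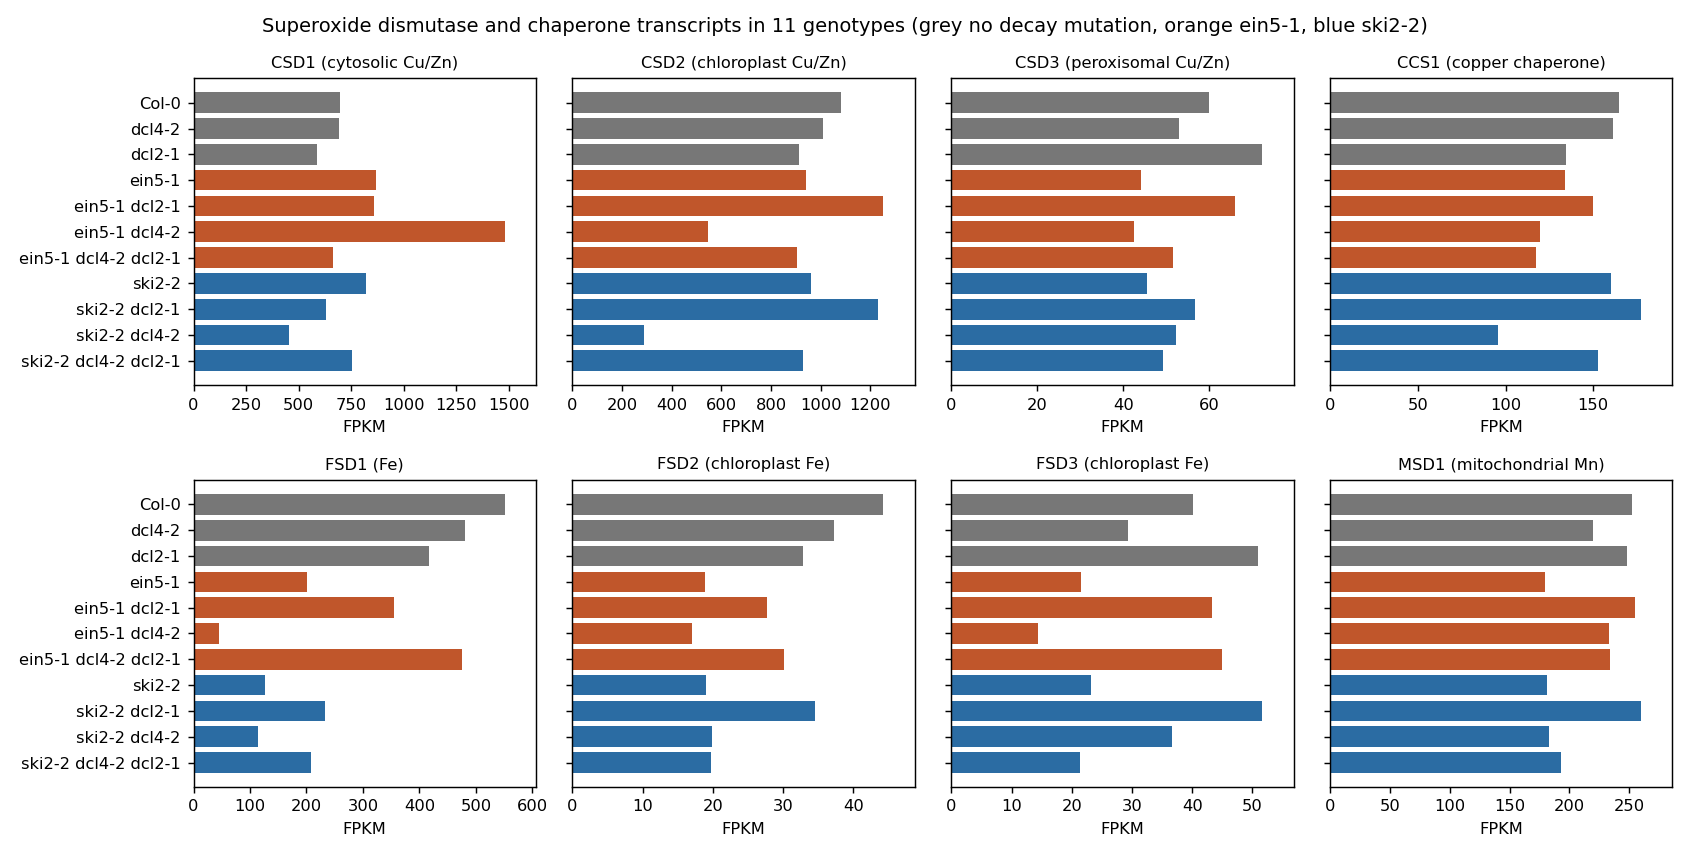
Pooled FPKM (x axis, from 0, a separate scale in each panel) of the 8 genes in the 11 genotypes (y axis), grey without a decay mutation, orange with ein5-1 and blue with ski2-2, with no error bars because the table holds 1 value per genotype. FSD1 spans 44.4 to 551 FPKM, MSD1 179.9 to 260.3 FPKM, and CSD1 and CSD2 diverge in ein5-1 dcl4-2 at 1479.6 and 545 FPKM.

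The decay single mutants had lower Fe enzyme mRNA with both Dicer genes intact. In ein5-1, 2 of 8 members differed 2-fold from Col-0 (background 7.43% of all genes), FSD1 and FSD2, both lower, and the same 2 did so in ski2-2 (background 5.56%). The log2(FPKM + 1) difference of FSD1 was -1.45 in ein5-1 and -2.11 in ski2-2, and that of FSD2 was -1.19 and -1.18. FSD3 was at -0.87 and -0.77 and MSD1 at -0.49 and -0.48, while CSD1 was at 0.32 and 0.23. No member differed 2-fold in dcl4-2 (background 1.51%) or dcl2-1 (background 9.26%). These differences carry no test. In ein5-1 and ski2-2 the 4 leaf genes summed to 35526 and 36080 FPKM against 72472 in Col-0. The 4 clock genes summed to 415 and 379 FPKM against 167, and the part of either in the Fe enzyme levels was not tested.

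In the doubles and triples with dcl2-1, FSD1 lay nearer to Col-0 with ein5-1 (355 and 475 FPKM) than with ski2-2 (232 and 208 FPKM). No member was 2-fold from Col-0 in ein5-1 dcl2-1 (background 10.5%) or ein5-1 dcl4-2 dcl2-1 (background 8.25%). FSD1 was 2-fold lower in ski2-2 dcl2-1 (1 of 8, background 9.04%), and FSD1 and FSD2 were in ski2-2 dcl4-2 dcl2-1 (2 of 8, background 5.48%). Set against its own single mutant on the log2(FPKM + 1) scale, ein5-1 dcl2-1 had no member 2-fold apart (background 16.7%), and ski2-2 dcl2-1 had FSD3 alone, higher (background 15.5%). The plain FPKM ratio of FSD3 was 2.01 in the first and 2.23 in the second, so the pseudocount alone sets these counts apart. The difference between the ein5-1 and ski2-2 backgrounds was not tested.

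Genes of copper supply did not move together. Of 17 genes on this list, 12 reached 1 FPKM in ein5-1 dcl4-2 or Col-0, and 2 rose and 3 fell (background 36.7% of all genes). The median log2(FPKM + 1) difference was 0.00 beside 0.13 over all genes. PAA2 and PAA1, the copper ATPases of the chloroplast, fell with log2 ratios of -2.01 and -1.15 in the authors' deposited table, from 49.1 to 12.2 FPKM and from 83.7 to 37.7 FPKM. RAN1, the copper ATPase that serves ethylene receptors, and HMA5, a copper exporter, rose with 1.12 and 1.61 in the authors' deposited table. In the triple over the double mutant PAA2 rose by 1.72 on the log2 scale and HMA5 fell 4.28-fold in the authors' deposited table.

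Of the 17 copper supply genes, 5 rose and 4 fell in ski2-2 dcl4-2 over Col-0 (background 28.9% of all genes). There 14 were at 1 FPKM or more, and the median was 0.07 beside 0.06 over all genes. Beside the backgrounds the copper supply counts are not read as a result about the list. The metal transporter genes ZIP2 and YSL2 rose with log2 ratios of 4.70 and 2.48 in the authors' deposited table, HMA5 rose with 2.00 and PAA2 fell with -1.88. ZIP2 was at only 0.258 FPKM in Col-0 and at 6.63 FPKM in the double mutant. FRO5, a metal reductase gene, was listed at 0 in Col-0 and at 1.19 FPKM in the double mutant. The root marker IRT1 was at 60.6 FPKM in this genotype, and its part in these rises was not tested. SPL7 itself was at 11.05 FPKM in Col-0, 11.97 in ein5-1 dcl4-2 and 16.4 in ski2-2 dcl4-2. It lay between 5.35 and 7.70 FPKM in dcl2-1, both dcl2-1 doubles and ein5-1 dcl4-2 dcl2-1, the genotypes with low CCA1. In the remaining genotypes SPL7 was at 11.6 to 14.9 FPKM, and the part of the clock difference in SPL7 was not tested. The log2 ratio of SPL7 over Col-0 in the authors' deposited table was 0.12 in ein5-1 dcl4-2, above the q threshold, and 0.58 in ski2-2 dcl4-2, which passed q below 2-fold.

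The table gives little on the copper microRNA precursors. MIR398A and MIR398B were listed at 0 in all 11 genotypes and MIR398C was at 0.0217 to 0.259 FPKM. MIR408 had the highest precursor value, 1.16 FPKM in ski2-2 dcl4-2, and none of the 7 precursors on the list rose or fell. A listed 0 may be a gene that was not quantified, since LHCB1.3, abundant elsewhere, is also listed at 0 in dcl2-1, and mature miRNA is not measured by these libraries.

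Among 13 other copper proteins and copper microRNA targets, 3 rose and 4 fell in ein5-1 dcl4-2 over Col-0 (median 0.27, background 36.7%). In ski2-2 dcl4-2 over Col-0, 3 rose and 5 fell (median -0.12, background 28.9%), with 11 at 1 FPKM or more in each comparison. PETE2 and PETE1, the plastocyanins that carry electrons to photosystem I, fell in ein5-1 dcl4-2 with log2 ratios of -3.35 and -2.83 in the authors' deposited table. PETE2 was at 5619 FPKM in Col-0, 553 in ein5-1 dcl4-2 and 893 in ski2-2 dcl4-2. The laccase gene LAC7 and the uclacyanin gene UCC2 rose in both doubles, with 4.36 and 4.14 in ein5-1 dcl4-2 and 5.13 and 3.86 in ski2-2 dcl4-2 in the authors' deposited table. LAC7 was at 0.217 FPKM in Col-0, 4.44 in ein5-1 dcl4-2 and 7.52 in ski2-2 dcl4-2, so its ratios rest on a value near 0. UCC2 was at 3.05, 53.9 and 43.8 FPKM in the same genotypes. AT3G15640, whose miR398 window is shown above, was at 118 FPKM in Col-0, 143 in ein5-1 dcl4-2 and 53.2 in ski2-2 dcl4-2. Its log2 ratio over Col-0 in the authors' deposited table was 0.27 in the first double, below 2-fold, and -1.14 in the second, a fall.

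The plastid polymerase partners, the proteins beside which FSD2 and FSD3 work, moved in 1 direction in ein5-1 dcl4-2 over Col-0. There 10 of 11 fell and 0 rose, in a comparison in which 36.7% of all tested genes did either. The median log2(FPKM + 1) difference was -1.83 beside 0.13 over all genes. PTAC12, PTAC10, FLN1 and PTAC14 fell with log2 ratios of -2.49, -2.30, -2.18 and -2.14 in the authors' deposited table. All 11 rose in the triple over the double mutant (background 35.6%), with a median of 2.01 beside -0.08. Relative to ein5-1, 3 of 11 fell in ein5-1 dcl4-2 (median -0.84, background 30.7%). Without a test, 3 of 11 were 2-fold higher in ein5-1 dcl2-1 than in ein5-1 (median 0.76, background 16.7%). In ski2-2 dcl2-1 over ski2-2 it was 7 of 11 (median 1.06, background 15.5%). In ski2-2 dcl4-2 over Col-0, 4 of 11 fell (PTAC7, TRXZ, PTAC12 and FLN1, at -1.58 to -1.16 in the authors' deposited table). The background there was 28.9%, beside which this count is not read as a result. In the ski2-2 triple over the double mutant 0 rose and 0 fell (background 28.0%). In ski2-2 dcl4-2 over ski2-2 they went both ways, from -0.9 to 0.55, and 0 rose or fell (background 27.6%). Without a test, 4 of 11 were 2-fold lower in ein5-1 than in Col-0 (median -0.8, background 7.43%). It was 3 of 11 in ski2-2 (median -0.86, background 5.56%) and 3 of 11 in the ski2-2 triple (median -0.75, background 5.48%). In these 3 genotypes 0 were 2-fold higher than in Col-0. FSD3 itself fell in ein5-1 dcl4-2 over Col-0 and rose in the triple over that double mutant. It neither rose nor fell in ein5-1 dcl4-2 over ein5-1 or in the ski2-2 comparisons with a test. CCA1 was at 69.3 FPKM in ein5-1 dcl4-2 and 9.34 in its triple, and the leaf markers at 8620.4 and 64657, and their part in these changes was not tested.

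Downstream of superoxide, 15 genes of the ascorbate-glutathione cycle and the peroxiredoxins, which remove hydrogen peroxide, split evenly in ein5-1 dcl4-2 over Col-0, where 5 rose and 5 fell in a comparison in which 36.7% of all genes did either. Their median log2(FPKM + 1) difference was 0.25 beside 0.13 over all genes. The chloroplast peroxiredoxin genes 2CPB and PRXQ fell with -3.27 and -3.20, AT3G11630, a Thioredoxin superfamily gene, fell with -2.68, and the dehydroascorbate reductase gene DHAR1 rose with 3.08 in the authors' deposited table. DHAR1 went from 415 FPKM in Col-0 to 3501 in ein5-1 dcl4-2. In ski2-2 dcl4-2 over Col-0 (background 28.9%), 1 rose, DHAR1 with 1.43, and 5 fell, 2CPB furthest with -3.18 in the authors' deposited table.

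A last list of 7 genes held NADPH oxidases, which make superoxide, the alternative oxidases of mitochondria, which are known to limit superoxide formation by respiration, and AT3G56350. Of these AOX1D, AOX1A and RBOHF rose in ein5-1 dcl4-2 over Col-0 and 0 fell (background 36.7% of all genes). The alternative oxidase gene AOX1D rose from 1.29 to 56.0 FPKM, and the authors' deposited table gives a log2 ratio of 5.44. The NADPH oxidase gene RBOHF had 1.22 and AOX1A 1.34 in the authors' deposited table. In the triple over the double mutant these 3 genes and RBOHD fell (background 35.6%). In ski2-2 dcl4-2 over Col-0 (background 28.9%) only AOX1D rose, with 2.08 in the authors' deposited table. AT3G56350, annotated as an iron/manganese superoxide dismutase, was at 0.182 FPKM in ein5-1 dcl4-2, at 0.617 FPKM in ski2-2 dcl4-2 and listed at 0 in the other 9 genotypes.

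**Figure D5:**
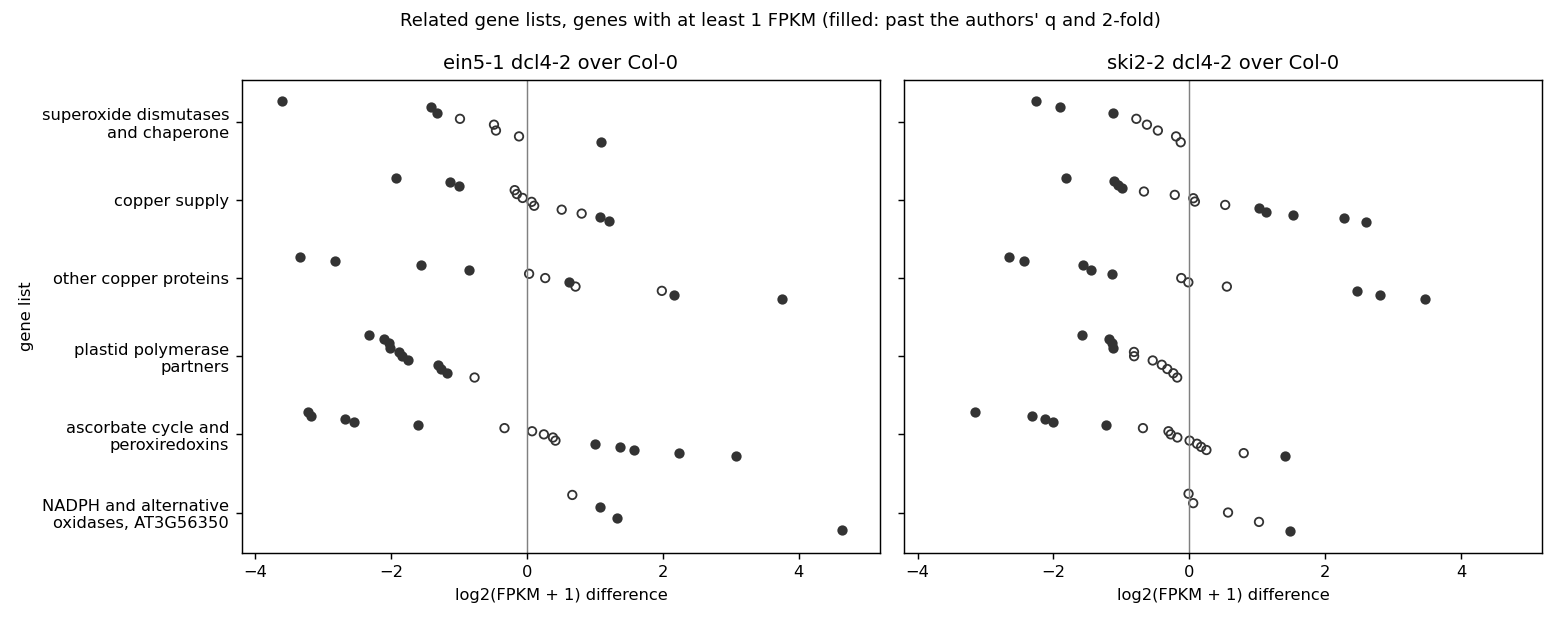
Difference in log2(FPKM + 1) (x axis) between ein5-1 dcl4-2 and Col-0 (left) and between ski2-2 dcl4-2 and Col-0 (right) for each gene of 6 lists (y axis) that reached 1 FPKM in either genotype, filled where the authors' q was at most 0.05 and their ratio at least 2-fold. On the left 10 of 11 plastid polymerase partners are filled and below 0 (background 36.7% of all genes). The copper supply genes lie on both sides of 0 in both panels.

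The genes whose levels followed a member most closely over the 11 genotypes were found by Pearson's r of log2(FPKM + 1) among 16685 genes with at least 5 FPKM in a genotype. For CSD1 they were AT5G64400, a CHCH domain protein gene (r 0.975), AT4G38250, an amino acid transporter family gene (0.965), and the profilin gene PFN2 (0.962). For CSD2 they were AT1G22690, a gibberellin-regulated family gene (0.979), BEH1 (0.978) and the ubiquitin-related RUB1 (0.973). By rank these followed CSD2 less closely, with Spearman's rho of 0.809, 0.855 and 0.709. For CCS1 they were BSL1 (0.895), the glutaredoxin gene GrxC5 (0.886) and AT5G26330, a cupredoxin family gene (0.879). For FSD1 they were AT1G78820, a lectin family gene (0.953), AT3G15570, an NPH3 family gene (0.951), and AT1G31710, a copper amine oxidase family gene (0.95). For the genes most like CSD1, CCS1 and FSD1 Spearman's rho was 0.818 to 0.973. None of these 12 genes is a member or belongs to the lists above, and the values describe 11 points that share 1 normalization.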

How the data were processed

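RNA of 33 libraries (11 genotypes with 3 each) was sequenced as 150-base paired ends after a TruSeq mRNA preparation, per the labels. Reads were aligned with TopHat2 2.1.1 to TAIR10 and quantified with Cuffdiff, whose version is not given, per the submitters' processing notes. The deposited FPKM values are scaled for transcript length and library size and pooled by the authors over a genotype. The deposited log2 ratios, p-values and q-values are the authors' own, for 8 comparisons. Their test carries the spread between libraries, which the labels call biological replicates without saying how they were grown. The deposited ratios equal those of the listed FPKM, apart from median offsets of 0.0132 and 0.0163 for ski2-2 dcl4-2 over Col-0 and dcl4-2. For single genes these offsets reached 0.161 and 0.184 (log2) in size, so another normalization may stand behind these 2 comparisons. Low values showed no read step, so depth and the precision it gives are unknown. FPKM sums were 753957 to 1352350, and with them the 10 highest genes took 6.14% to 13.9%.

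Calls used the deposited q at 0.05, a log2 ratio of 1 and 1 FPKM in a compared genotype, over 19426 to 19748 genes, and untested comparisons used a log2(FPKM + 1) difference of 1. Named were all 8 members, up to 4 genes per related list and comparison with the largest deposited ratios past the threshold, AT3G56350, SPL7, the miR398 precursors and the 3 genes most like CSD1, CSD2, CCS1 and FSD1. AT3G15640 in ein5-1 dcl4-2 and PETE2 and AT3G15640 in ski2-2 dcl4-2 were named after their values were seen. The members and lists were chosen with earlier results of these data known. Sequences and loci came from RefSeq TAIR10.1, whose names matched 32810 identifiers. The longest exact stretch shared by member transcripts is 26 bases, between FSD1 and FSD2. The code was tested on simulated data with numpy 2.4.6, matplotlib 3.10.9 and pandas 2.3.3 under Python 3.11.15. Alternatives were other pseudocounts, FPKM and log2 minimums and scalings.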

Additional observations from a re-analysis of the deposited data

Results flagged for a closer look

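CSD1 and FSD3 moved in opposite directions in the ein5-1 and ski2-2 backgrounds under the same added mutation, by log2 ratios that all passed the authors' q. Adding dcl4-2 gave CSD1 0.77 over ein5-1 and -0.86 over ski2-2 in the authors' deposited table, and gave FSD3 -0.58 and 0.67. Adding dcl2-1 to the double mutants gave CSD1 -1.16 with ein5-1 and 0.73 with ski2-2 in the authors' deposited table, and gave FSD3 1.64 and -0.79. Each difference between backgrounds was not tested, because no library values enter, and both contrasts of a background share its dcl4-2 double mutant. Opposite signs that both passed q were found for 5.53% of 20286 genes when dcl4-2 was added and for 11.2% of 20351 genes when dcl2-1 was added. The triples also differed in markers. CCA1 was at 9.34 FPKM in the ein5-1 triple and 165 FPKM in the ski2-2 triple, the only genotype with dcl2-1 outside the range of 3.32 to 9.34 FPKM, and the leaf markers summed to 64657 and 36495. The plastid polymerase partner PTAC6, named after its values were seen, was at 104 and 25.3 FPKM, and GR1, a glutathione reductase gene named likewise, at 64.4 and 238 FPKM. The part of these differences in the opposite signs was not tested.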

How the results depend on the processing

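Of 896 member ratios recomputed under the alternatives, 843 kept their side of the threshold and their direction, 22 lost and 29 gained a call, and 2 that had passed q below 2-fold changed sign under quantile normalization. These were CSD1 in ski2-2 dcl4-2 over Col-0 (0.06) and MSD1 in ski2-2 dcl4-2 over dcl4-2 (0.07). Of 19 member ratios above the authors' q, 6 changed sign under quantile normalization and 2 under median-of-ratios scaling. Of 112 counts of members past a threshold, 93 stayed within 1.5 times. With no minimum log2 ratio 7 members passed in ein5-1 dcl4-2 over Col-0, 5 over ein5-1 and 5 in the triple over the double mutant. For ski2-2 dcl4-2 it was 6 over Col-0, 7 over dcl4-2, 4 over ski2-2 and 5 in the triple over the double. With a minimum log2 of 2, 1 member passed in ein5-1 dcl4-2 over Col-0, over dcl4-2 and in the triple over the double, 1 in ski2-2 dcl4-2 over Col-0 and over dcl4-2, and 0 over ski2-2 and in the ski2-2 triple over the double. In untested comparisons with Col-0 that minimum left 1 in ski2-2 and 0 in ein5-1, the ski2-2 triple and ski2-2 dcl2-1. Quantile normalization gave 2 in ein5-1 dcl4-2 over ein5-1, where CSD1 reached 1.79. Of 210 calls in the related lists, 0 changed sign under these scalings, 26 were lost under quantile normalization and 13 under median-of-ratios scaling. The median gene was 0.13 (log2) higher in ein5-1 dcl4-2 than in Col-0, 0.04 after median-of-ratios scaling and -0.08 after quantile normalization. The scaling alternatives kept the authors' q, so a gene above it could not enter. No paired analysis was possible because the table holds 1 pooled value per genotype, and leaving out a replicate was not run for the same reason.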
